A study of Mus musculus with 2 samples.

Results

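Mature neutrophils of the mouse brain preparation were the cells that carried abundant S100a8 and S100a9 RNA and little RNA for granule proteins. They were selected on 4 measured values per cell. S100a8 plus S100a9 made up at least 3% of the UMIs of the cell, Ngp plus Camp plus Ltf under 1%, and Mpo plus Elane plus Prtn3 plus Ctsg under 0.2%, and fewer than 3 of the 7 cycling genes Mki67, Top2a, Cenpf, Birc5, Ube2c, Pbk and Cdk1 had a UMI. UMIs are random molecular tags, by which each captured transcript is counted 1 time however often it was amplified. The rule found 2021 of 14849 kept cells, 66 of 7032 in the Disc1 WT/WT library and 1955 of 7817 in the Disc1 LI/LI library. Barcodes with fewer than 200 genes or over 10% mitochondrial UMIs had been left out.

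The Disc1 LI/LI mice were homozygous for the locus impairment allele of Disc1, and the Disc1 WT/WT mice were their wild-type littermates. Brains of 6 males of 23 weeks were pooled for each genotype, so there was 1 library per genotype and no replicate, and no difference between the libraries could be tested. The dissociation included actinomycin D, which blocks new transcription, and CD45low CD11b+ cells were sorted. Both libraries carry the cell type label microglia. The 2021 cells went against that label, since they were chosen for neutrophil transcripts. All intervals below are 95% exact intervals (Poisson for a level, Clopper-Pearson for a share or a ratio) and cover counting error only, not the spread between animals or pools.

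The members had a median of 2742.5 UMIs and 955.5 genes per cell in Disc1 WT/WT and 2737 UMIs and 806 genes in Disc1 LI/LI, and summed to 240721 and 6146151 UMIs. A gene without a UMI could still be present at up to 12.5 UMIs per 1000000 (CPM) in Disc1 WT/WT and 0.488 CPM in Disc1 LI/LI, the levels that 3 counts would give. Disc1 itself had 642 UMIs over all kept Disc1 WT/WT cells and 22 over all kept Disc1 LI/LI cells. In the mature neutrophils it had 0 and 1 UMIs, and a count of 0 allows up to 12.5 CPM in Disc1 WT/WT, close to the 19.1 CPM over all kept cells of that library. The allele could therefore not be checked within these cells. Of the barcodes, 12 occurred in both libraries, and 0 Disc1 WT/WT and 4 Disc1 LI/LI members had one of them. Of the 66 Disc1 WT/WT members 14 (21.2%), and of the 1955 Disc1 LI/LI members 102 (5.22%), drew at least 1% of their UMIs from 12 microglia marker genes. The main results between the libraries are therefore given with and without these 116 cells, and the part of free RNA in them was not tested. Of these cells, 4 of the 14 and 83 of the 102 were among the 5% of cells with the highest doublet scores of their library, as were 6.06% and 6.14% of all members.

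Neutrophils are short-lived phagocytes that are made in the bone marrow. While they mature, they make the proteins of their azurophil, specific and gelatinase granules in successive waves, and these transcripts decline before the cells enter the blood. Circulating cells carry the chemokine receptor Cxcr2, which serves in recruitment to tissue, and activated cells produce cytokines such as interleukin-1 beta. In the healthy brain they are mostly found in vessels and at the borders rather than in the parenchyma.

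The bases before the start of 4 genes are shown. S100a9 was chosen as the most abundant transcript and a gene of the rule. Il1b, Retnlg and Chil3 were chosen because they mark the ends and the middle of the order by granule RNA described below. S100a9 encodes a subunit of calprotectin, Retnlg a resistin-like protein of neutrophils, Il1b interleukin-1 beta, and Chil3 a chitinase-like protein that was near its lowest in mature cells. Each window holds the 250 bases before the RefSeq start (GRCm38.p6, the mm10 build), read 5′ to 3′ on the strand of the gene. They lie at chr3:90695722-90695971 (minus strand), chr16:48872358-48872607 (plus strand), chr2:129371140-129371389 (minus strand) and chr3:106167565-106167814 (minus strand), in that order. Capitals mark matches to TTNNGNAA, a C/EBP-type sequence, or to TATAAA, the TATA box, on either strand.
S100a9: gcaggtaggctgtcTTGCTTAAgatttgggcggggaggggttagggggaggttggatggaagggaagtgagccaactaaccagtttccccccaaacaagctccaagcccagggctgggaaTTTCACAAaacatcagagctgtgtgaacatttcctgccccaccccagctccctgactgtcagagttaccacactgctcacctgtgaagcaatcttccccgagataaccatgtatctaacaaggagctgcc
Retnlg: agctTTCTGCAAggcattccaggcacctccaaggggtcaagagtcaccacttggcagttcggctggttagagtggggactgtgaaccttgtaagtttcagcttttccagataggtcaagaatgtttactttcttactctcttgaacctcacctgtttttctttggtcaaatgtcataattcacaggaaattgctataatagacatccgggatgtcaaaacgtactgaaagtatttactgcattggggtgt
Il1b: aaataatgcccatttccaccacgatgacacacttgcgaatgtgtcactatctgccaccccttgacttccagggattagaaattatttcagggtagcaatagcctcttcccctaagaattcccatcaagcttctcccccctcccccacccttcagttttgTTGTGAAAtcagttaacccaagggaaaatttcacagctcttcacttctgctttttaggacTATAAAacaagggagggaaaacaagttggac
Chil3: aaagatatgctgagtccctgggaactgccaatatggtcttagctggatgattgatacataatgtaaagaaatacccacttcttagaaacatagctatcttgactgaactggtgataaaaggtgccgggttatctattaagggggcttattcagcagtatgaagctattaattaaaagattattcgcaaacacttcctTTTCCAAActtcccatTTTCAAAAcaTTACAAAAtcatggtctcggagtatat
The C/EBP-type letters were present in all 4 windows, with 2 matches before S100a9, 1 before Retnlg, 1 before Il1b and 3 before Chil3. Of 32851 promoter windows of the same length, 36.8% held such a match. TATAAA was present only before Il1b among the 4, from 31 to 26 bases before the start, and in 12.4% of all windows. These matches describe letters, not bound sites.

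The rule genes S100a8 and S100a9 were the 2 most abundant transcripts of the cells, and the rest of the level ranking was not used by the rule. S100a9 was at 103070 CPM in Disc1 WT/WT and 150305 CPM in Disc1 LI/LI, and S100a8 at 82411 and 118339 CPM. Their joint share of the UMIs of a cell had a median of 20.8% in Disc1 WT/WT, below the 28.3% of Disc1 LI/LI. Retnlg, encoded on chromosome 16 (48872621 to 48874496, mm10), was next among neutrophil genes at 27696 CPM (27035 to 28369) and 44438 CPM (44272 to 44605). Retnlg was detected in 100% of the Disc1 WT/WT members, and in 99.5% of those from Disc1 LI/LI, against 1.93% and 53.0% of cells with microglia markers (median depths of 4257 and 3977.5 UMIs). UMI counts come from the 3′ ends of transcripts and do not scale with gene length, so these values rank transcripts by number. Other abundant transcripts were Tmsb4x, which binds actin monomers, at 20318 and 22386 CPM, Malat1, a nuclear noncoding RNA, at 21573 and 20853 CPM, Actb at 13530 and 13774 CPM and Fth1, the ferritin heavy chain, at 7905 and 11132 CPM. S100a6 and S100a11, 2 further calcium-binding proteins, were at 8250.2 and 11557 CPM and at 5309 and 7015 CPM.

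The receptors that mark mature cells were also present. Cxcr2, the receptor for neutrophil-attracting chemokines (chromosome 1, 74153989 to 74161246), was at 685 CPM (585 to 798) and 769 CPM (747 to 791), with a UMI in 89.4% and 89.0% of the cells. Il1r2, the decoy receptor for interleukin-1 (chromosome 1, 40074079 to 40125231), was at 378 and 585 CPM, in 62.1% and 76.0% of the cells. Csf3r, the receptor for granulocyte colony-stimulating factor, was at 577 and 557 CPM, and Ly6g, a surface marker of mouse neutrophils, at 291 and 468 CPM. Cells with microglia markers gave the background level, where Retnlg was at 5.06 CPM in Disc1 WT/WT and 166 CPM in Disc1 LI/LI, Cxcr2 at 0.59 and 5.65 CPM and Il1r2 at 0.59 and 5.80 CPM. Of those cells, 0.119% and 2.24% had a Cxcr2 UMI and 0.268% and 2.36% an Il1r2 UMI. All 10 mature neutrophil markers of the list passed 100 CPM in the members, but S100a8 and S100a9 among them did so by the rule. The other 8, which the rule did not use, were thus present in both libraries.

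**Figure D1:**
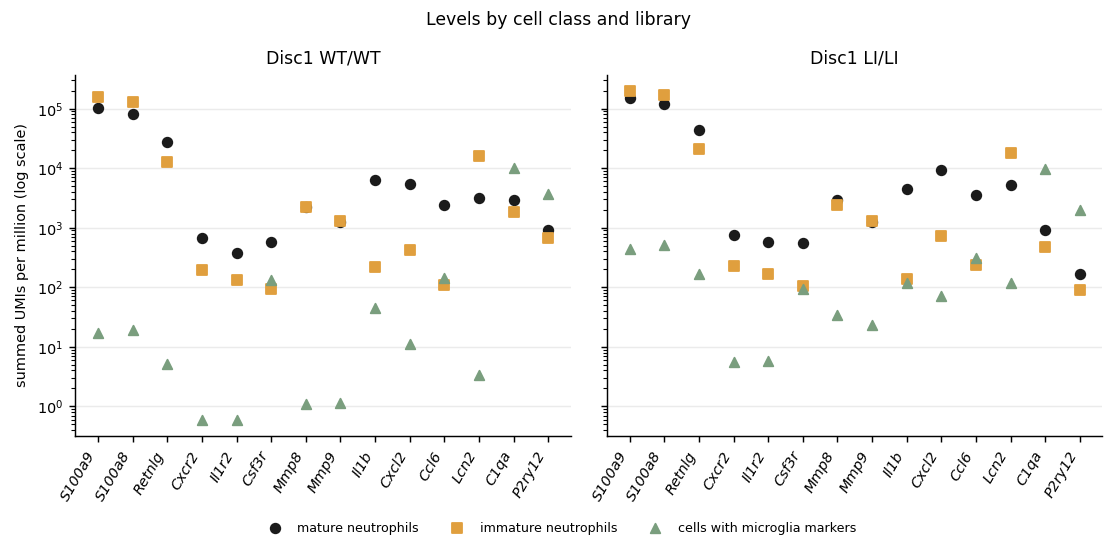
Levels of 14 genes (CPM, log scale) in mature neutrophils (black circles, bars for 95% Poisson intervals), immature neutrophils (orange squares) and cells with microglia markers (green triangles), with the Disc1 WT/WT library left and the Disc1 LI/LI library right. Il1b, Cxcl2 and Ccl6 are over 8-fold higher in mature than in immature cells, Mmp8 and Mmp9 differ by under 1.5-fold, and Lcn2 is lower in mature cells.

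Mature neutrophils were 0.939% (0.727 to 1.19) of kept cells in Disc1 WT/WT and 25.01% (24.1 to 26.0) in Disc1 LI/LI. Without the cells that drew at least 1% of UMIs from microglia markers, 52 and 1853 members were left. Among all neutrophils with low azurophil and cycling transcripts, 66 of 114 (57.9%, 48.3 to 67.1) were mature in Disc1 WT/WT, and 1955 of 3381 (57.8%, 56.1 to 59.5) were mature in Disc1 LI/LI. The difference between these 2 shares was smaller than their counting error. Of kept cells outside the class with microglia markers, 21.4% and 36.8% were mature neutrophils. The sort for CD45low CD11b+ cells sets what enters a library, and with 1 pool per genotype the gate, the blood left in the brain, the droplet chip and the genotype cannot be told apart. Members just inside the S100a8 plus S100a9 limit, at 3 to 4%, numbered 1 and 15, and cells just outside it, at 2 to 3%, numbered 3 and 11. At the granule limit, 1 and 59 members lay at 0.8 to 1% and 1 and 45 cells at 1 to 1.2%.

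Next, mature neutrophils were compared with immature neutrophils, which met the same rule except that Ngp plus Camp plus Ltf was at least 1% of UMIs (48 cells in Disc1 WT/WT, 1426 in Disc1 LI/LI). The question was which transcripts beyond the granule genes of the rule separate the stages. Of 1061 genes with at least 100 CPM in a class of each library, 173 (16.3%) were at least 2-fold higher in mature cells in both libraries and 51 (4.81%) at least 2-fold lower, and 0 were past 2-fold in opposite directions. The median log2 ratio of all 1061 genes was 0.41 for Disc1 WT/WT, close to 0.38 for Disc1 LI/LI, and named values should be read against it. TMM scaling, the trimmed mean of M-values of edgeR, gave medians of 0.05 and 0.02 over its 1043 genes, of which 106 were higher and 90 lower. The classes were cut from the same counts, and immature cells held more RNA (median 6934.5 and 6504 UMIs), so the values are a description.

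Inflammatory ligands and cytokines were among the genes with the highest ratios. Il1b was at 6260 CPM in mature and 220 CPM in immature Disc1 WT/WT cells, and at 4495 and 138 CPM in Disc1 LI/LI, with log2 ratios of 4.83 and 5.03. Cxcl2, a chemokine that attracts neutrophils through Cxcr2, was at 5529 against 415 CPM in Disc1 WT/WT and 9336 against 733 CPM in Disc1 LI/LI. Ccl6, a chemokine of myeloid cells, had log2 ratios of 4.44 and 3.91. Of the 6 inflammatory ligands compared, 5 were at least 2-fold higher in both libraries, against 16.3% of all genes. All 17 genes of the list summed to 15379 CPM in mature and 1267 CPM in immature Disc1 WT/WT cells, and 18984 and 1789 CPM in Disc1 LI/LI. Oncostatin M, from Osm, was at 557 and 968 CPM in mature cells. The inflammasome sensor Nlrp3, at 253 and 159 CPM, had log2 ratios of 2.64 and 4.02, and all 3 inflammasome genes compared (Nlrp3, Ninj1 and Il1b, which is in both lists) were at least 2-fold higher in both libraries, against the same 16.3%.

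Other genes among the 12 highest ratios were Ifitm1, an interferon-inducible membrane protein, with log2 ratios of 7.56 and 5.12, and Pla2g7, which inactivates platelet-activating factor, with 6.74 and 4.72. Ptgs2, the inducible cyclooxygenase, was at 420 CPM in mature and 40.5 CPM in immature Disc1 WT/WT cells, and at 411 and 23.6 CPM in Disc1 LI/LI. Jaml, an adhesion protein of leukocytes, had log2 ratios of 4.41 and 3.71, and Gadd45b, a stress-response gene, 4.44 and 3.34. H2-Q10, Cstdc4, Wfdc17 and Dck completed the group with Il1b, Ccl6 and Cxcl2. Each of these genes differed more than 8-fold in both libraries. Several are low-count in immature Disc1 WT/WT cells, where Ifitm1, Pla2g7 and Cstdc4 each had 2.53 CPM.

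Receptors and adhesion molecules followed. Cxcr2 had log2 ratios of 1.83 and 1.73, Csf3r 2.62 and 2.41, and Clec4d, a C-type lectin receptor, 3.23 and 2.71. Of 9 cytokine and growth factor receptors compared, 3 were at least 2-fold higher and 0 lower in both libraries. Of 6 chemoattractant receptors, 2 were higher and 1 lower, and of 9 adhesion molecules 1 was higher and 2 lower. On lists of this size these counts are near the shares over all genes, 16.3% higher and 4.81% lower, and nothing is read from them. Itgam, the CD11b chain on which cells were sorted, had log2 ratios of -0.65 and -0.56. Among transcription factors, Cebpb was at 3116 and 5172 CPM in mature cells (log2 ratios of 1.71 and 1.63), while Cebpe, a factor of granule gene expression, was at 8.31 and 18.1 CPM against 203 and 251 CPM in immature cells.

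Specific granule genes were compared next. Of 11 specific granule genes compared, 7 were at least 2-fold lower and 1 higher in both libraries. The shares over all genes were 4.81% and 16.3%. Among the 7 are Ngp, Camp and Ltf, which the rule made lower, so only the other 4 are read against that share. The other 4 were Lcn2, Chil3, Olfm4 and Cd177, and the higher one was Adam8. Lcn2, the iron-scavenging lipocalin, was at 3141 CPM in mature and 15943 CPM in immature Disc1 WT/WT cells, and at 5282 and 17827 CPM in Disc1 LI/LI. Chil3 had log2 ratios of -8.07 and -4.61, Serpinb1a, an inhibitor of neutrophil proteases, -4.27 and -3.57, and Anxa1, a calcium-dependent membrane-binding protein, -2.49 and -2.15. Orm1, Zmpste24, Lta4h, Golim4, Gca, AA467197 and Ceacam1 also belonged to the 12 lowest ratios. The collagenase Mmp8, also a specific granule gene, had log2 ratios of 0.01 and 0.27, and the gelatinase Mmp9 had -0.05 and -0.03. Of 6 gelatinase and secretory vesicle genes compared, 0 passed 2-fold in both libraries in either direction, a count that on 6 genes is near the share of all genes.

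Effector and motility genes are given beside the shares over all genes, 16.3% higher and 4.81% lower. Of 7 NADPH oxidase genes compared, whose products make superoxide, 0 were at least 2-fold higher and 1 was lower in both libraries. That gene was Cybb, the catalytic subunit, at 291 and 302 CPM in mature and 1647 and 1328 CPM in immature cells. Padi4, an enzyme of extracellular trap formation, had log2 ratios of 0.19 and 0.25. Of 7 ARP2/3 subunits, which branch actin filaments, 0 passed 2-fold, and of 25 leukocyte actin regulators 0 were higher and 1 lower, the capping protein gene Capg with log2 ratios of -1.43 and -1.11. Srgn, the proteoglycan of secretory granules, was at 3003 and 4469 CPM in mature cells, with log2 ratios of 2.39 and 2.48, and Mcl1, which keeps neutrophils from apoptosis, at 2023 and 1716 CPM, with ratios of 1.94 and 1.86.

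**Figure D2:**
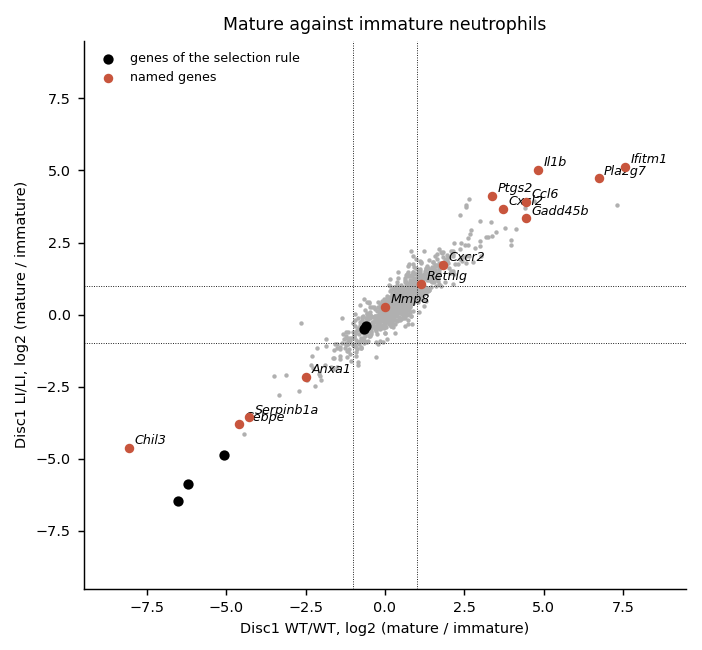
Each point is 1 of 1061 genes, with the log2 ratio of mature over immature neutrophils in Disc1 WT/WT on the x axis and in Disc1 LI/LI on the y axis, and dotted lines at 2-fold. Genes of the selection rule are black, named genes red, and 0 genes passed 2-fold with opposite signs.

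Immediate early genes, which are switched on quickly by stimuli, were compared because actinomycin D was present during dissociation. Of the 14 compared, 6 were at least 2-fold higher in mature cells in both libraries and 0 lower, against 16.3% and 4.81% of all genes. Junb was at 2434 against 654 CPM in Disc1 WT/WT and 2873 against 780 CPM in Disc1 LI/LI, and Dusp1, a phosphatase gene of this group, had log2 ratios of 2.62 and 2.67. Fos was at 2625 and 3275 CPM in mature cells, with log2 ratios of 0.86 and 0.94. After thinning each cell to 1000 UMIs, 76.9% of the mature cells of Disc1 WT/WT, and 85.4% of those of Disc1 LI/LI, had at least 10 UMIs of these genes, against 20.8% and 19.1% of immature cells and 6.19% and 11.3% of cells with microglia markers. Thinning left out 1 and 4 shallower mature cells. The part of sorting and of RNA amount per cell in this difference was not tested.

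Within the neutrophils, cells were ordered by the share of Ngp, Camp and Ltf in 6 bins, of which the first 3 (0 to 0.1%, 0.1 to 0.3% and 0.3 to 1%) are mature. These held 47, 8 and 11 Disc1 WT/WT and 1188, 424 and 343 Disc1 LI/LI cells. The bins were cut from measured values, and median UMIs per cell rose along them, from 2434 to 12432 in Disc1 LI/LI. In Disc1 WT/WT they rose from 2304 in the first bin to 7173 in bin 5. Levels along the bins are therefore a description. In Disc1 LI/LI, Il1b was at 6587, 3106 and 1047 CPM in the 3 mature bins and at 294, 73.6 and 9.47 CPM in the immature bins. In Disc1 WT/WT the mature bins had 8263, 4080 and 1590 CPM. Cells with the least granule RNA thus had the most Il1b in both libraries. Cxcl2 in Disc1 LI/LI was at 11985, 8080 and 4490 CPM in the mature bins, and in Disc1 WT/WT at 5751, 7271 and 4047 CPM, where the second bin of 8 cells was highest. Without the cells with microglia markers the Disc1 WT/WT bins had 7598, 7271 and 7974 CPM of Cxcl2, with overlapping counting intervals.

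Cxcr2 changed less over the mature bins, from 839 to 752 and 625 CPM in Disc1 LI/LI and from 707 to 705 and 614 CPM in Disc1 WT/WT. Csf3r was at 731, 448 and 263 CPM in Disc1 LI/LI and 707, 371 and 307 CPM in Disc1 WT/WT. Csf3r was highest in the bin with the least granule RNA in both libraries. For Cxcr2 this held in Disc1 LI/LI, while the Disc1 WT/WT bins lay within their counting intervals and, without the cells with microglia markers, had 914, 705 and 970 CPM, with the third bin of 8 cells highest. Malat1 was at 24020, 19168 and 15238 CPM in Disc1 LI/LI and 22794, 18399 and 19623 CPM in Disc1 WT/WT. The Disc1 WT/WT bins without the cells with microglia markers had 26499, 18399 and 18103 CPM of Malat1, so the first bin was highest in each case.

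Retnlg had its highest level in the middle of the order. In Disc1 LI/LI it was at 36185, 51653 and 56390 CPM in the mature bins and at 44356, 11720 and 982 CPM in the immature bins. In Disc1 WT/WT the mature bins had 22693, 52044 and 30157 CPM. Without the cells with microglia markers these were 28647, 52044 and 47953 CPM, so the drop in the third Disc1 WT/WT bin, which then held 8 cells, was smaller. Mmp8 had the same form, with 2353, 3366 and 3992 CPM in Disc1 LI/LI and 1338, 3932 and 4029 CPM in Disc1 WT/WT.

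In Disc1 LI/LI, genes of the other end increased with granule RNA already among mature cells. Lcn2 was at 3616, 5866 and 8525 CPM, Chil3 at 135, 174 and 277 CPM and Ly6g at 340, 536 and 696 CPM in the mature bins of Disc1 LI/LI. In Disc1 WT/WT, Lcn2 was at 2102, 5564 and 4933 CPM, and at 2909, 5564 and 6825 CPM without the cells with microglia markers, which is the order of Disc1 LI/LI. Ly6g in Disc1 WT/WT was at 133, 1187 and 307 CPM, and at 154, 1187 and 467 CPM without those cells, highest in the second bin of 8 cells both times, and Chil3 had 0 UMIs in the first 2 bins. Over the 1951 thinned Disc1 LI/LI cells, Spearman's rho was 0.39 between Il1b and Cxcl2, -0.40 between Il1b and Retnlg and 0.43 between Mmp8 and Retnlg. These cells share 1 library, and thinned counts that sum to a fixed number favour negative values.

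**Figure D3:**
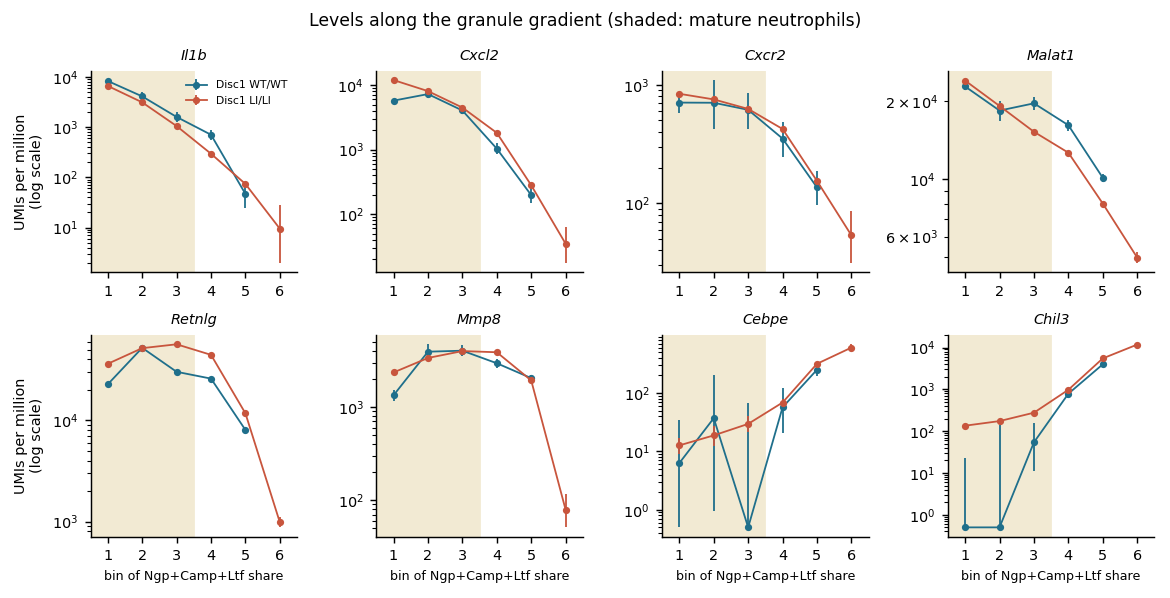
Levels of 8 genes (CPM, log scale, bars for 95% Poisson intervals) in 6 bins of the share of Ngp, Camp and Ltf UMIs, for Disc1 WT/WT (blue, bins of at least 8 cells) and Disc1 LI/LI (red), with values of 0 at the bottom of the axis and the mature bins shaded. In Disc1 LI/LI, Il1b, Cxcl2 and Cxcr2 are highest in the first bin, Retnlg and Mmp8 in the third, and Cebpe and Chil3 in the last, and in Disc1 WT/WT Cxcl2 is highest in the second bin.

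The mature cells were not alike. Over the 1951 Disc1 LI/LI cells thinned to 1000 UMIs, the median ratio of variance to mean was 1.06 for 1858 genes, where random sampling alone gives about 1. Genes outside the rule with the highest ratios included Cxcl2 (15.8), Retnlg (13.4), Il1b (9.97), Ccl4 (8.19), Fth1 (7.03), Stfa1, a stefin (6.77), and G0s2, an inhibitor of fat breakdown (6.15). In the Disc1 WT/WT cells the ratio was 11.6 for Cxcl2, 14.5 for Retnlg and 9.62 for Il1b. Cxcl2 had a 90th percentile of 29 and a highest value of 104 UMIs per 1000, and Il1b of 15 and 48. Other genes high in this ranking were transcripts of other cell types, among them Cst3 (31.9), Apoe (8.85), C1qa (7.71) and C1qb (6.04) of microglia and macrophages, Cd74 (12.04) of antigen-presenting cells, Igkc (5.89) of B cells and Prss34 (24.5) of basophils. Of the 393 Prss34 UMIs in Disc1 LI/LI members, 1 cell held 314.

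Interferon-response transcripts had a median of 2 UMIs per 1000 in the mature cells of both libraries, and a minority of cells had more. At least 10 UMIs of these genes per 1000 were found in 10.8% of mature cells in Disc1 WT/WT (7 of 65, 4.44 to 20.9), while the share in Disc1 LI/LI was 4.10% (80 of 1951, 3.26 to 5.08). Immature cells had 0 of 48 (up to 7.40% by its interval) and 0.771%, and cells with microglia markers 0.439% and 3.14%. The 80 cells were chosen by these genes, so the genes' own levels in them are no finding. Outside the list, these cells and the other 1871 were alike in level for Cxcr2, at 783 and 769 CPM, and for Cxcl2, at 9262 and 9305 CPM, while Retnlg was at 34099 and 44883 CPM, Mmp8 at 2287 and 2996 CPM and Il1b at 5846 and 4434 CPM.

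Finally, mature neutrophils of Disc1 LI/LI were compared with those of Disc1 WT/WT. Of 1410 genes with at least 100 CPM in a library, 20 (1.42%) were at least 2-fold higher in Disc1 LI/LI and 219 (15.5%) at least 2-fold lower. Without cells with at least 1% microglia marker UMIs (52 and 1853 cells, 1348 genes) the counts were 38 (2.82%) and 143 (10.6%). Of the genes first called, 12 of the 20 and 58 of the 219 were also past 2-fold without those cells. The median log2 ratio was -0.31, and -0.29 without those cells, so ratios are to be read against a centre below 0. TMM scaling raised every ratio by 0.75 and turned the split to 296 higher and 50 lower genes, so the direction of the balance depends on the scaling.

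The microglia marker list differed between the libraries. All 12 markers were at least 2-fold lower in Disc1 LI/LI members, with sums of 14382 and 4137 CPM, where 15.5% of all genes were lower. Without the 116 cells the sums were 1187 and 545 CPM, and of the 4 markers then compared 2 were at least 2-fold lower, against 10.6% of all genes. These cells were left out by the same markers, so nothing is read from that count. C1qa, the most abundant of the markers and a chain of complement C1q, was at 2941 and 914 CPM over all members (log2 ratio -1.69). P2ry12, a purinergic receptor of resting microglia, was at 914 and 165 CPM (-2.47). With TMM scaling P2ry12 had -1.72, but C1qa had -0.94, within 2-fold. The count of all 12 thus did not hold under that scaling. Cst3, abundant in microglia, was at 19072 and 5857 CPM, and at 1964 and 1306 CPM without those cells. The 3 lowest ratios over all members rested on few cells. In Disc1 WT/WT, taken for each gene separately, the highest cell held 35 of 38 Mrc1, 46 of 52 Ccl12 and 22 of 31 Pf4 UMIs. Magt1, Tanc2, Cd2ap, Havcr2, Nrip1, Epb41l2, P2ry13 and Plxdc2 were also among the 12 lowest.

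Genes of the glycolysis list were among those higher in Disc1 LI/LI. Of 13 genes of this list compared, 4 were at least 2-fold higher and 0 lower, where 1.42% and 15.5% of all genes were. Without the cells with microglia markers 2 were higher and 0 lower, against 2.82% and 10.6%. Aldoa, an aldolase, was at 349 and 824 CPM (log2 ratio 1.24, 0.93 to 1.57), and at 374 and 863 CPM without those cells. Gapdh was at 1188 and 2212 CPM, a log2 ratio of 0.90. Tpi1, the triose phosphate isomerase, was at 49.9 and 142 CPM (1.51, 0.70 to 2.47), from 12 UMIs in Disc1 WT/WT. Tpi1 passed the 100 CPM minimum only in Disc1 LI/LI, so its place in the count rests on the library where it was high. The summed list was at 4690.1 and 7275 CPM in the members. It was higher in Disc1 LI/LI in the other classes too, at 5743 and 6576 CPM in immature neutrophils, 2535 and 4172 CPM in cells with microglia markers and 4283 and 5932 CPM in cells with at least 3 monocyte markers, so the libraries differed in this list beyond the mature cells. The class with monocyte markers held only 21 Disc1 WT/WT cells, against 993 in Disc1 LI/LI. The list's median was 0.89, against -0.31 over all genes compared, and 0.63 without those cells. Pygl, a glycogen phosphorylase of the list, had a ratio of -0.43. Aldoa, Gapdh and Tpi1 were higher in Disc1 LI/LI in all 15 alternatives tried, while Ldha, the lactate dehydrogenase A chain, with a ratio of 0.73, was lower in 1 of them, thinning to 1000 UMIs (-0.12).

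The largest ratios rested on few Disc1 WT/WT UMIs. Stfa1 had 3 UMIs against 1097 in Disc1 LI/LI (log2 ratio 3.84, 2.29 to 6.12), and the Disc1 LI/LI UMIs lay in 104 of 1955 cells. Crip1, a LIM-domain protein, had 1 and 648 UMIs (4.67, 2.18 to 9.97), in 134 Disc1 LI/LI cells. Chil3 had 3 and 1091 UMIs (3.83, 2.28 to 6.11), and Cdkn1a, the cell cycle inhibitor p21, 8 and 839 UMIs (2.04, 1.05 to 3.25) in 381 cells. Without the members with at least 1% microglia marker UMIs the log2 ratios were 3.18 for Stfa1, 3.99 for Crip1, 3.13 for Chil3 and 1.47 for Cdkn1a. Cells with microglia markers carried Chil3 at 14.8 CPM in Disc1 WT/WT and 370 CPM in Disc1 LI/LI, Crip1 at 72.6 and 782 CPM, and Igkc, the immunoglobulin kappa constant chain, at 22.4 and 5768 CPM. These 3 genes thus differed between the libraries in the microglia class as well, and the part of free RNA in the members was not tested. Stfa1 was at 0 and 0.595 CPM there. Igkc had 0 UMIs in Disc1 WT/WT members and 926 in Disc1 LI/LI members, at least 12.1-fold higher against a floor of 3 counts. Cd74, Plac8, H2-Aa, Smpdl3a, Tpi1, Tmsb10 and Sde2 were the others of the 12 highest. Cd74 had a log2 ratio of 3.78 over all members and 5.38 without those with at least 1% microglia marker UMIs. It had 6 UMIs in Disc1 WT/WT members and 2107 in Disc1 LI/LI members, in 235 cells, and 5 cells held 45.6% of the 2107. For H2-Aa, 5 cells held 56.5% of the Disc1 LI/LI UMIs. In the Disc1 WT/WT members then left, all antigen-presenting cell markers summed to 28.8 CPM, where 3 counts would give 21.6 CPM. The ratio of 5.38 thus rests on very few Disc1 WT/WT UMIs.

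All 10 mature neutrophil markers lay within 2-fold between the libraries, with and without the cells with microglia markers, but this depended on the scaling. S100a8 and S100a9 among them are genes of the rule, so nothing is read from their ratios. With TMM scaling, Retnlg (1.43), Il1r2 (1.38), Ly6g (1.44) and Mmp8 (1.15) had log2 ratios past 2-fold, all higher in Disc1 LI/LI. The rule genes S100a8 (1.27) and S100a9 (1.29) did so too. Cxcr2 had a log2 ratio of 0.17 (-0.06 to 0.40) and Csf3r -0.05 (-0.30 to 0.20), intervals that include 0. Il1b had -0.48 over all members and -0.81 without the cells with microglia markers, and 0.27 with TMM scaling, so its direction depended on the scaling. Cxcl2 had 0.76 and 0.39 without those cells, and was higher in Disc1 LI/LI in all 15 alternatives. Of 6 inflammatory ligands, 14 immediate early genes, 7 chemoattractant receptors, 7 NADPH oxidase genes and 7 ARP2/3 subunits compared, 0 passed 2-fold in either direction, against 1.42% of all genes higher and 15.5% lower. Without the cells with microglia markers 1 chemoattractant receptor, Ccrl2, was higher (1.18) and 1 immediate early gene, Atf3, lower (-1.08). With TMM scaling several genes of these lists passed 2-fold, among them Cxcl2 (1.51), Ccl6 (1.33), Dusp1 (1.73) and Fos (1.07).

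Of 8 interferon-response genes compared, 2 were at least 2-fold lower in Disc1 LI/LI and 0 higher, where 15.5% of all genes were lower, so the count is near the share of all genes. Without the cells with microglia markers 4 of 10 were lower and 0 higher, against 10.6% of all genes lower. Slfn4, a schlafen gene, was at 212 CPM (158 to 279) in Disc1 WT/WT and 100 CPM (92.3 to 108) in Disc1 LI/LI. Its log2 ratio was -1.08. Slfn5 had 20 and 166 UMIs, a ratio of -1.62. Over all members Slfn5 was under 100 CPM in both libraries, so it was not among the 8. Without the cells with microglia markers Slfn5 passed that minimum only in Disc1 WT/WT. Its place among the 10 thus rests on the library where it was high, and nothing is read from the 4 of 10. Slfn4 and Slfn5 were lower in all 15 alternatives, but with TMM scaling the ratios of -0.33 and -0.87 were within 2-fold. Without the cells with microglia markers the ratios were -1.76 and -2.18. The summed list was at 3116 and 2931 CPM, and Ifitm3, its most abundant gene, had a ratio of 0.52. Itga4, an integrin chain, had -2.25 and Clec5a, a C-type lectin receptor, -1.78 among the lowest ratios without those cells.

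**Figure D4:**
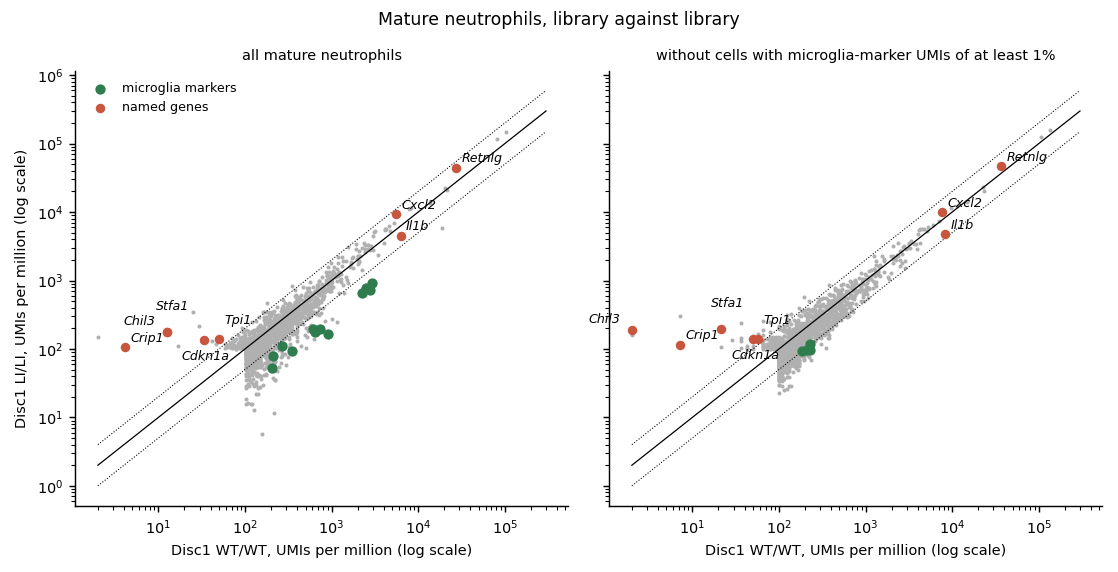
Level of each gene with at least 100 CPM in a library, in Disc1 WT/WT (x) and Disc1 LI/LI (y) mature neutrophils (CPM, log scales), with all members left and without cells with at least 1% microglia marker UMIs right. The line marks equality and the dotted lines 2-fold, and all 12 microglia markers (green) lie below the lower dotted line at left while 4 reach 100 CPM at right.

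Markers of further cell types were also summed. Monocyte markers had the largest sums of these lists, 557 and 763 CPM, led by Ly6c2 at 332 and 449 CPM. T cell markers summed to 4.15 and 17.2 CPM, natural killer cell markers to 0 and 9.44 CPM, neuron markers to 0 and 0.325 CPM, and erythroid markers to 37.4 and 24.1 CPM. Oligodendrocyte markers, led by Mbp, summed to 91.4 and 52.6 CPM, and to 108 and 52.7 CPM without the cells with microglia markers, and astrocyte markers, led by Slc1a3, to 45.7 and 15.0 CPM, and to 7.19 and 1.09 CPM without them. Antigen-presenting cell markers, led by Cd74, summed to 78.9 CPM in Disc1 WT/WT and 600.4 CPM in Disc1 LI/LI, and B cell markers to 141 and 339 CPM. Basophil and mast cell markers summed to 0 and 28.5 CPM, and neutrophil progenitor markers, led by Chil3, to 29.1 and 310 CPM. Elane and Prtn3 of the progenitor list are rule genes, so the selection limited its sums in part. Border macrophage markers, led by Mrc1, summed to 469 and 67.7 CPM, and platelet markers, led by Pf4, to 137 and 16.6 CPM. Without the cells with microglia markers, border macrophage markers summed to 21.6 and 48.5 CPM and erythroid markers to 7.19 and 24.6 CPM, so the order of the libraries turned for both, and platelet markers summed to 7.19 and 6.02 CPM. Monocyte markers then summed to 640.2 and 814 CPM, antigen-presenting cell markers to 28.8 and 507 CPM, B cell markers to 108 and 353 CPM and neutrophil progenitor markers to 7.19 and 321 CPM. Ribosomal protein genes summed to 49331 and 43566 CPM over all members, and to 28692 and 39623 CPM without the cells with microglia markers, so their order between the libraries turned with those cells.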

How the data were processed

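Single-cell 3′ RNA sequencing was analysed in 2 libraries of sorted brain cells, 1 per genotype. Raw UMI counts of each gene in each barcode were deposited by the authors, made with Cell Ranger 6.1.2 (matrix header) and STAR on mm10. Seurat 3.0.1 is also named in the submitters' processing notes. The droplet chip of each library is not given in the sources used here. The members, gene lists and alternatives were chosen with earlier results of these data known. Counts were summed over the cells of a class and divided by their summed UMIs (CPM). No test was possible, and a gene was counted when it differed at least 2-fold, among genes with at least 100 CPM. Genes at 0 were set at 3 counts in medians, and TMM scaling kept its own set of genes past the minimum. Immature neutrophils had at least 1% Ngp, Camp and Ltf UMIs. Cells with microglia markers had UMIs of at least 6 of 12 markers and under 3% S100a8 and S100a9. Cells with monocyte markers had UMIs of at least 3 of 6 monocyte genes and fewer than 6 microglia markers. They also had under 3% S100a8 and S100a9 and met the azurophil and cycling limits of the rule. Doublets were not removed. The doublet caller Scrublet, run in scanpy 1.11.5, marked 0 of the 7032 cells in Disc1 WT/WT and 337 of the 7817 in Disc1 LI/LI, so its calls were not used, and the 5% highest scores were left out as an alternative. Named genes were the markers and Disc1, the 15 most abundant genes, genes of the lists, the 12 highest and lowest ratios of each comparison and the 15 most variable genes. A few genes that this rule names are not reported here. Itga4, Clec5a and Capg were named after their values were seen, as were per-cell concentrations of single genes. Coordinates came from GENCODE M21 (32158 of 32285 identifiers matched) and promoter windows from RefSeq. The ratio code was checked on simulated data. Python 3.11.15, scipy 1.17.1 and edgeR 4.0.16 were used.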

Additional observations from a re-analysis of the deposited data

How the results depend on the processing

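No paired analysis was possible because each genotype had 1 library. The Disc1 LI/LI share of 25.01% became 22.6% and 27.7% with granule limits of 0.5% and 2%, 23.7% without cells with microglia markers and 23.5% without the highest doublet scores. The mature share of Disc1 LI/LI neutrophils became 52.2% and 63.9% with those granule limits. Genes at least 2-fold higher and lower in Disc1 LI/LI (20 and 219) became 38 and 143 without cells with microglia markers, 296 and 50 with TMM scaling, 38 (higher) after thinning to 1000 UMIs, and 42 and 567 with a minimum of 50 CPM. Chosen after seeing the data, totals without S100a8, S100a9 and Retnlg gave 54 higher genes, and 72 when cells with microglia markers were also left out. Genes higher and lower in mature than immature cells (173 and 51) became 106 and 90 with TMM scaling, which lowered each of these ratios by about 0.29 on the log2 scale. The other settings kept these counts within 1.5 times. The Disc1 WT/WT sums rest on 66 cells, so a gene at 100 CPM there has about 24 UMIs, and the causes of these changes were not tested.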
